A study of Mus musculus with 4 samples.

Results

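Cells detect foreign or misplaced RNA with a small set of proteins, and 10 genes of this system were followed in PyMT-A mouse mammary tumour cells, all 10 of them found by symbol among 33677 rows of the count table. They encode the RIG-I family of RNA helicases (Ddx58, Ifih1 and Dhx58), their adaptor Mavs, the kinase Tbk1, the ubiquitin ligase Trim25, the endosomal receptor Tlr3, and the RNA-binding proteins Zbp1, Eif2ak2 and Adar. The name cytosolic nucleic acid sensors therefore holds only loosely, since Tlr3 sits in endosomes, Mavs and Tbk1 relay a signal, and Adar edits RNA. The genes were taken by name, and their measured values were not part of the rule, although earlier results of these data were known. Poly(A) RNA was compared between PyMT-A cells infected with the PMSCV-Jagged1 virus (Jagged1 cells, 2 libraries) and PyMT-A cells infected with the empty PMSCV-puro virus (vector cells, 2 libraries). Both lines came from a mammary tumour of the FVB/NJ strain, both carry a PMSCV virus, and both were grown in DMEM with serum and antibiotics. Jagged1 is a ligand of Notch receptors. The labels name no clone, no promoter and no separate cultures for the replicates, so the p-values measure only the spread between these libraries, which may be technical.

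RIG-I and MDA5, the products of Ddx58 and Ifih1, bind double-stranded RNA in the cytosol and act through Mavs on mitochondria, where Tbk1 is activated and phosphorylates the transcription factor IRF3, which switches on interferon beta. Interferon then raises the transcription of most of the sensors themselves, so that their messenger RNA levels are commonly read as part of the interferon response. Mavs and Tbk1 are the members less known for such induction. Tumour cells are also known to sense RNA of their own, such as transcripts of repeats, and Adar limits this by editing double-stranded RNA.

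Total counts were 20835208 and 13549258 in the Jagged1 libraries and 15609720 and 12136227 in the vector libraries. The transduced gene Jag1 had 5676 and 4493 reads in Jagged1 cells, against 159 and 112 reads in vector cells, and was the 1 gene of 13299 tested that passed an adjusted p of 0.05 (edgeR quasi-likelihood test, log2 fold change 4.93 ± 0.20, adjusted p = 0.0111). The percentage of genes called was thus 0.00752%. Without either vector library Jag1 no longer passed, with log2 fold changes of 5.06 without vector 1 and 4.82 without vector 2, and adjusted p up to 0.240, against 7.92e-95 at the lowest over the alternatives. The libraries separated first by replicate number and only then by line, with 51.6% of the variance of log2 CPM (a gene's reads per scaled library size) on a first principal component that put both libraries numbered 1 apart from both numbered 2, and 32.4% on the component that separated the lines. Vector 1 stood out in ribosomal RNA, with 0.982% of its counts on the row Rn18s-rs5, against 0.0735 to 0.177% in the other libraries. Epithelial markers were abundant, with a summed level of 5442 and 4175 CPM in Jagged1 cells and 6025 and 4718 CPM in vector cells, though Krt19, 1 of the 6, had at most 1 read in a library. The 8 leukocyte markers summed to 2.03 and 4.98 CPM in Jagged1 cells and 2.05 and 5.05 CPM in vector cells, and the defining leukocyte gene Ptprc had at most 1 read in any library. The T-cell gene Cd3e was at 0 in all 4 libraries. The 3 fibroblast markers summed to 8.32 and 8.38 CPM in Jagged1 cells and 3.37 and 4.97 CPM in vector cells, most of it Pdgfra. Dcn had 6 and 23 reads in Jagged1 cells, the latter 1.66 of the 8.38 CPM. Dcn was at 0 and 0 in vector cells and Lum at 0 throughout. The 3 endothelial markers summed to 0.581 and 6.28 CPM in Jagged1 cells and 0.661 and 2.77 CPM in vector cells. The part of the fibroblast markers in the values of the sensor genes was not tested.

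The sequence around the annotated starts of the sensor genes is shown because interferon acts on many of them through a shared promoter element. Its core can be written as GAAA, any 2 bases, GAAA. RefSeq promoter windows (GRCm38.p6, 250 bases before to 50 bases after an annotated start) matched 8 of the 10 genes in 10 windows, not Zbp1 and Dhx58. This motif, searched on both strands, was found in 3 of the 10 windows, those of Ddx58, Ifih1 and Eif2ak2, against 3.44% of 32851 promoter windows of the same length. A shorter motif of GAA, any 2 bases, GAA, also searched on both strands and whose matches may overlap those of the longer one, was in 5 of the 10 windows, against 20.1% of all. For Trim25 and Adar only the shorter motif was found, and Tlr3 and Tbk1 had no match to either. The 3 windows with the longer motif are printed with the match in capitals, beside that of Mavs, which also had no match to either motif. They lie on the minus strand at chr4:40239776-40240075 (Ddx58), chr2:62646206-62646505 (Ifih1) and chr17:78882523-78882822 (Eif2ak2), and on the plus strand at chr2:131233813-131234112 (Mavs), all in GRCm38.p6.
Ddx58: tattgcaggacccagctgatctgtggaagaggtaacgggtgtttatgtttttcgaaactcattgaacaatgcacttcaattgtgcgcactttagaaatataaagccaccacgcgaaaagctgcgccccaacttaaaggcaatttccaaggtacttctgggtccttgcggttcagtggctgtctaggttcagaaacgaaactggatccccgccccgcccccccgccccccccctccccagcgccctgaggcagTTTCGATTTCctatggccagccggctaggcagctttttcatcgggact
Ifih1: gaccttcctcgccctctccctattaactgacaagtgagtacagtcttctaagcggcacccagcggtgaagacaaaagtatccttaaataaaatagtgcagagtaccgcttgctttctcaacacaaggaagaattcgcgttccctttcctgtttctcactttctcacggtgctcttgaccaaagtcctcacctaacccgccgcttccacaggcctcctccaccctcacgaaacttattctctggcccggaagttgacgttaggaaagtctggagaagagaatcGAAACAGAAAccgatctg
Eif2ak2: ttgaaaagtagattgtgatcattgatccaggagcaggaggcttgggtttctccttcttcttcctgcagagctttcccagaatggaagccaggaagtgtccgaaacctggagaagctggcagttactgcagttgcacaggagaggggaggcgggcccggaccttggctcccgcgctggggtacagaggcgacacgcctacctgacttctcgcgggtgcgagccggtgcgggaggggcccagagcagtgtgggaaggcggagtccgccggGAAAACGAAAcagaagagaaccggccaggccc
Mavs: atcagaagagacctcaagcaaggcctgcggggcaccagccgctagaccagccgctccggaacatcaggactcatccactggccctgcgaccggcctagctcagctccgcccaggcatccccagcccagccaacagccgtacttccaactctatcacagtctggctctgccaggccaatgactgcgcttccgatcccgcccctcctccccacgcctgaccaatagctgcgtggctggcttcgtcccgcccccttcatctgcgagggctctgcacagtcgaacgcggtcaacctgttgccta
In these windows the match began at base 253 for Ddx58, where it reads on the opposite strand. It began at base 283 for Ifih1 and at base 269 for Eif2ak2. Each match lay downstream of the annotated start, by 2 bases for Ddx58, 32 for Ifih1 and 18 for Eif2ak2. A match is a description of these letters and does not show binding.

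Most sensor genes had slightly lower values in Jagged1 cells, and no member passed the test. In 7 of the 10 genes the higher Jagged1 library was still under the lower vector library, which held for 15.1% of all tested genes, and the opposite order was seen in 0, against 13.9% of all genes. These 7 were Zbp1, Dhx58, Ifih1, Tlr3, Trim25, Adar and Ddx58, and they were the same genes when libraries were scaled by their totals, by DESeq2 size factors or by upper-quartile factors. All 10 genes passed the filter on low counts. In bulk RNA, fewer cells expressing a gene and less RNA per cell cannot be told apart. The median log2 fold change of Jagged1 over vector was -0.18 over the 10 genes, against -0.003 over all tested genes, with 9 values negative and 1 positive, where 50.5% of all tested genes were negative. Without vector 1, the library with the most ribosomal RNA, the median was -0.13, against 0.025 over all tested genes in that fit. Of the 10, 0 passed the adjusted threshold in edgeR, in DESeq2 (where 0.353% of genes were called) and in limma-voom (0.00752%), and 2, Zbp1 and Dhx58, had an unadjusted p under 0.05 in edgeR, against 2.15% of tested genes with such a p and a lower value and 3.96% in either direction. The count among the sensors was also 0 without the low-count filter (0.686% of genes called), with a minimum mean of 5 CPM (0.00962%), with the replicate number as a block (0.128%), without Jagged1 1 (1.38%) and without Jagged1 2 (0.352%). The smallest p that an exact permutation of these libraries allows for 1 gene is 0.333 (two-sided).

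**Figure D1:**
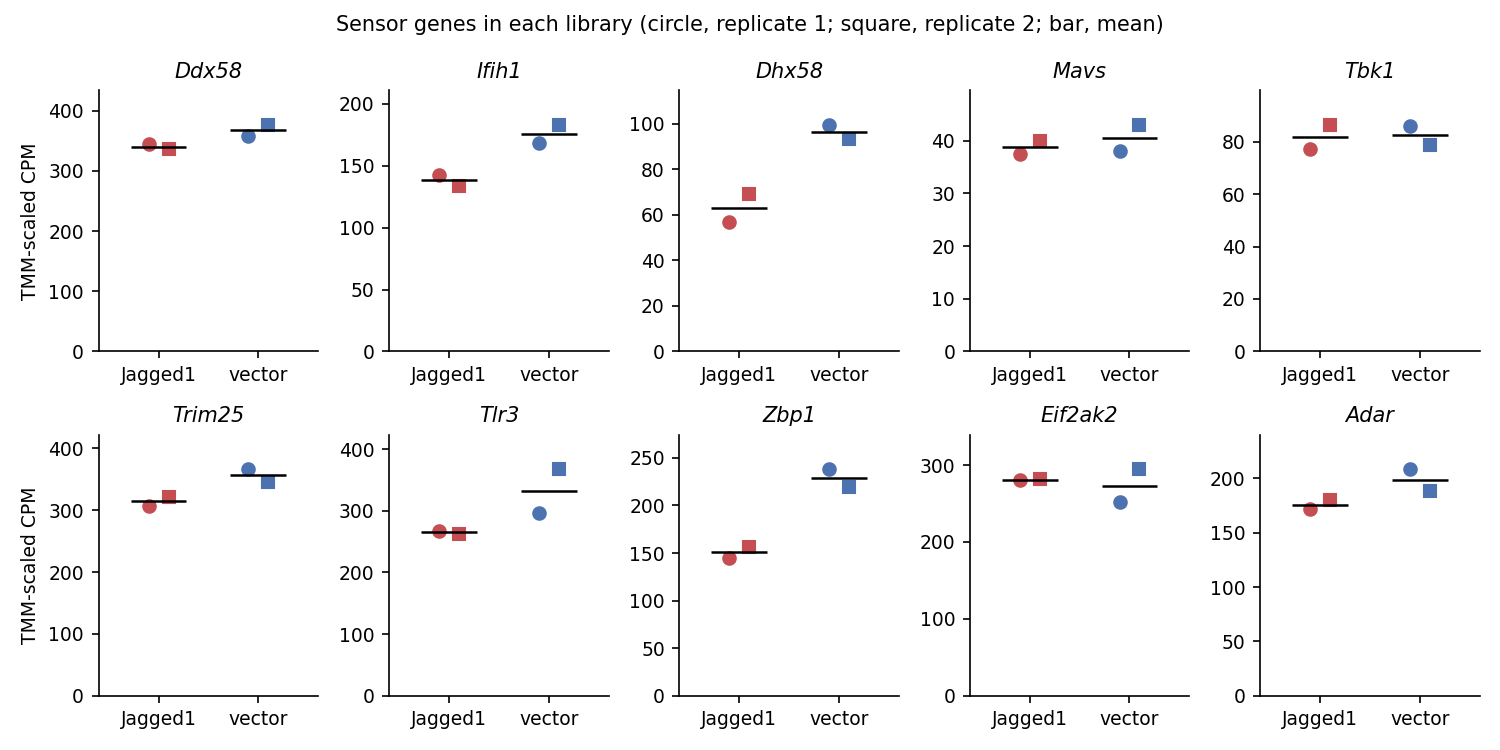
Level of each sensor gene in each library, in TMM-scaled CPM (vertical axes, each from 0), for Jagged1 cells (red) and vector cells (blue). Circles are replicate 1, squares replicate 2 and bars the mean of the 2 libraries. Zbp1 and Dhx58 show the widest gap between the lines, while the libraries of Mavs, Tbk1 and Eif2ak2 overlap.

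Among the RIG-I family, Dhx58 had the widest difference between the lines. Dhx58 (ENSMUSG00000017830; chromosome 11, 100694884 to 100704271, minus strand) encodes LGP2, which lacks the signalling domains of RIG-I and MDA5 and tunes their activity. It stood at 57.1 and 69.0 CPM in the Jagged1 libraries, against 99.7 and 93.2 CPM in the vector libraries. Every Jagged1 library was below every vector library, and the gap between the lines was wider than the spread within either. The means were 63.0 ± 8.42 CPM in Jagged1 cells and 96.4 ± 4.62 CPM in vector cells (SD, n = 2 per line), 1.53-fold lower in Jagged1 cells. The log2 fold change was -0.61 ± 0.17 (SE; adjusted p = 0.976, edgeR), with a 95% interval for this gene alone of -1.03 to -0.20. Only 3.52% of tested genes had a more negative value. Exons of the antisense gene Dhx58os overlap those of Dhx58 by 141 bases, and the strand setting of the counting is not given. Dhx58os had between 1 and 8 reads in a library, which does not show how reads on the shared bases were assigned.

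Ifih1 and Ddx58 shared the direction with smaller differences. Ifih1 (ENSMUSG00000026896; chromosome 2, 62595798 to 62646255, minus strand), the gene of MDA5, which binds long double-stranded RNA, was at 142 and 134 CPM in Jagged1 cells, against 168 and 183 CPM in vector cells. The libraries of the lines did not overlap, and the log2 fold change was -0.35 ± 0.15 (SE; adjusted p = 1.00, edgeR; interval -0.72 to 0.02). Ddx58 (ENSMUSG00000040296; chromosome 4, 40203773 to 40239828, minus strand), the gene of RIG-I, which recognises triphosphate ends of RNA, had the highest mean CPM of the 10 in both lines, though Trim25 was above it in vector 1. Its level was 345 and 336 CPM in Jagged1 cells, against 358 and 377 CPM in vector cells. The closest libraries of the lines, Jagged1 1 and vector 1, differed by less than the 2 vector libraries did. The log2 fold change of Ddx58 was -0.11 ± 0.15, with an interval of -0.47 to 0.25.

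The adaptor and the kinase downstream of these receptors did not separate the lines. Mavs (ENSMUSG00000037523; chromosome 2, 131234063 to 131248025, plus strand) was at 37.5 and 39.9 CPM in Jagged1 cells, against 38.0 and 43.1 CPM in vector cells. Tbk1 (ENSMUSG00000020115; chromosome 10, 121546455 to 121586787, minus strand) was at 77.1 and 86.5 CPM in Jagged1 cells, against 85.9 and 78.7 CPM in vector cells. In both genes the libraries of the lines overlapped. Their log2 fold changes were -0.07 ± 0.16 for Mavs and -0.01 ± 0.15 for Tbk1 (SE, edgeR), and the intervals, -0.47 to 0.33 and -0.40 to 0.38, do not show that the levels were equal.

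Trim25 and Tlr3 had lower values in both Jagged1 libraries. Trim25 (ENSMUSG00000000275; chromosome 11, 88999376 to 89020293, plus strand), a ubiquitin ligase of the RIG-I pathway, was at 307 and 322 CPM in Jagged1 cells, against 367 and 345 CPM in vector cells (log2 fold change -0.18 ± 0.15, and -0.11 without vector 1). Tlr3 (ENSMUSG00000031639; chromosome 8, 45395665 to 45411080, minus strand) detects double-stranded RNA in endosomes and signals without Mavs. It was at 268 and 262 CPM in Jagged1 cells, against 296 and 368 CPM in vector cells. The Jagged1 libraries of Tlr3 lay close together while vector 2 stood above vector 1, so the log2 fold change of -0.33 ± 0.17 moved to -0.17 without vector 2 and to -0.45 without vector 1. Exons of the antisense gene Gm45542, which was not analysed here, overlap Tlr3 by 381 bases.

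The remaining RNA-binding members differed from one another. Zbp1 (ENSMUSG00000027514; chromosome 2, 173206612 to 173218923, minus strand) binds nucleic acids in the left-handed Z form and can start necroptosis. It stood at 145 and 157 CPM in Jagged1 cells, against 239 and 219 CPM in vector cells, with no overlap. The means were 151 ± 8.66 CPM in Jagged1 cells and 229 ± 13.7 CPM in vector cells (SD, n = 2 per line), 1.52-fold lower in Jagged1 cells. The log2 fold change was -0.60 ± 0.15 (SE; adjusted p = 0.925, edgeR), with an interval of -0.98 to -0.23, and 3.74% of tested genes had a more negative value. Without any 1 library the value of Zbp1 lay between -0.67 and -0.52.

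Adar and Eif2ak2 lay nearer to 0. Adar (ENSMUSG00000027951; chromosome 3, 89715022 to 89753446, plus strand) shares with Zbp1 a domain for Z-form RNA and edits adenosines in double-stranded RNA. Its level was 171 and 180.5 CPM in Jagged1 cells, against 209 and 188 CPM in vector cells, a log2 fold change of -0.17 ± 0.15 that was -0.08 without vector 1. Exons of Chrnb2 on the opposite strand overlap Adar by 1365 bases. Chrnb2 itself had between 20 and 29 reads in a library, which again does not show how reads on the shared bases were assigned. Eif2ak2 (ENSMUSG00000024079; chromosome 17, 78852564 to 78882573, minus strand) encodes PKR, a kinase that halts translation when it binds double-stranded RNA. It was at 280.1 and 282 CPM in Jagged1 cells, against 252 and 295 CPM in vector cells, so that both Jagged1 values lay between the vector values. Its log2 fold change of 0.04 ± 0.16 was the single positive one (interval -0.35 to 0.44). Its promoter window holds the same motif as those of Ddx58 and Ifih1.

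**Figure D2:**
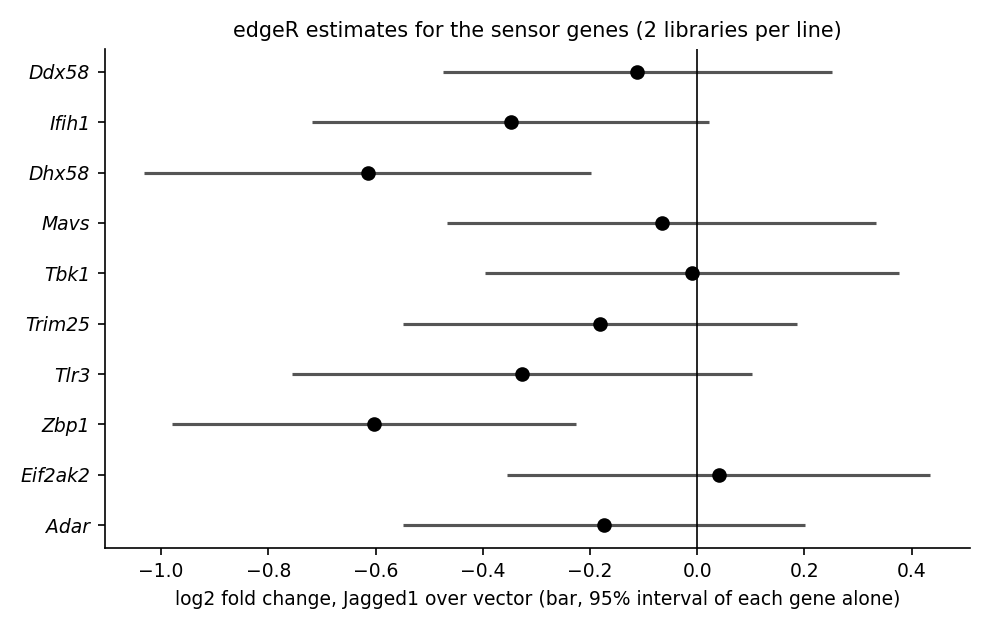
Log2 fold change of Jagged1 over vector for each sensor gene (horizontal axis) from the edgeR fit to 2 libraries per line, with the 95% interval of each gene alone, not adjusted for the number of genes tested. The intervals of Dhx58 (-1.03 to -0.20) and Zbp1 (-0.98 to -0.23) lie below 0, and those of the other genes reach across it.

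Counting error was of the order of a few percent at most. The lowest count of any sensor in any library was 529, for Mavs in vector 2, where counting alone gives a relative error of 4.35%. For Zbp1 the lowest count was 2172 (2.15%) and for Dhx58 it was 955 (3.24%). For Mavs, Eif2ak2, Tlr3 and Ddx58 the counting error at the lowest count was close to or above the relative SD of the Jagged1 libraries. The vector libraries of these genes spread wider than counting error, with 40.5 ± 3.58 CPM for Mavs and 273 ± 30.8 CPM for Eif2ak2 (SD). The same held for Tlr3 (332 ± 51.1 CPM) and Ddx58 (368 ± 13.1 CPM). Counting errors cover no other source of spread.

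Ratios between genes of the same library do not depend on how libraries are scaled. Zbp1 had 1.87 and 1.81 reads per read of Tbk1 in Jagged1 cells, against 2.78 and 2.78 in vector cells, and 3.86 and 3.93 reads per read of Mavs in Jagged1 cells, against 6.28 and 5.09 in vector cells. Dhx58 had 0.740 and 0.797 reads per read of Tbk1 in Jagged1 cells, against 1.16 and 1.18 in vector cells. Relative to Mavs, Dhx58 stood at 1.52 and 1.73 in Jagged1 cells, against 2.62 and 2.16 in vector cells. In each of these 4 ratios both Jagged1 libraries were below both vector libraries, and the same held for Ifih1 relative to either gene. The share of all tested genes that separate in this way relative to Mavs or Tbk1 was not computed. Mavs and Tbk1 differed little between the lines, so these ratios largely repeat the fold changes above and are not separate evidence. Ddx58 overlapped between the lines in both ratios, Trim25, Tlr3 and Adar in 1 of the 2, and Eif2ak2 was higher in both Jagged1 libraries relative to Mavs and overlapped relative to Tbk1.

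**Figure D3:**
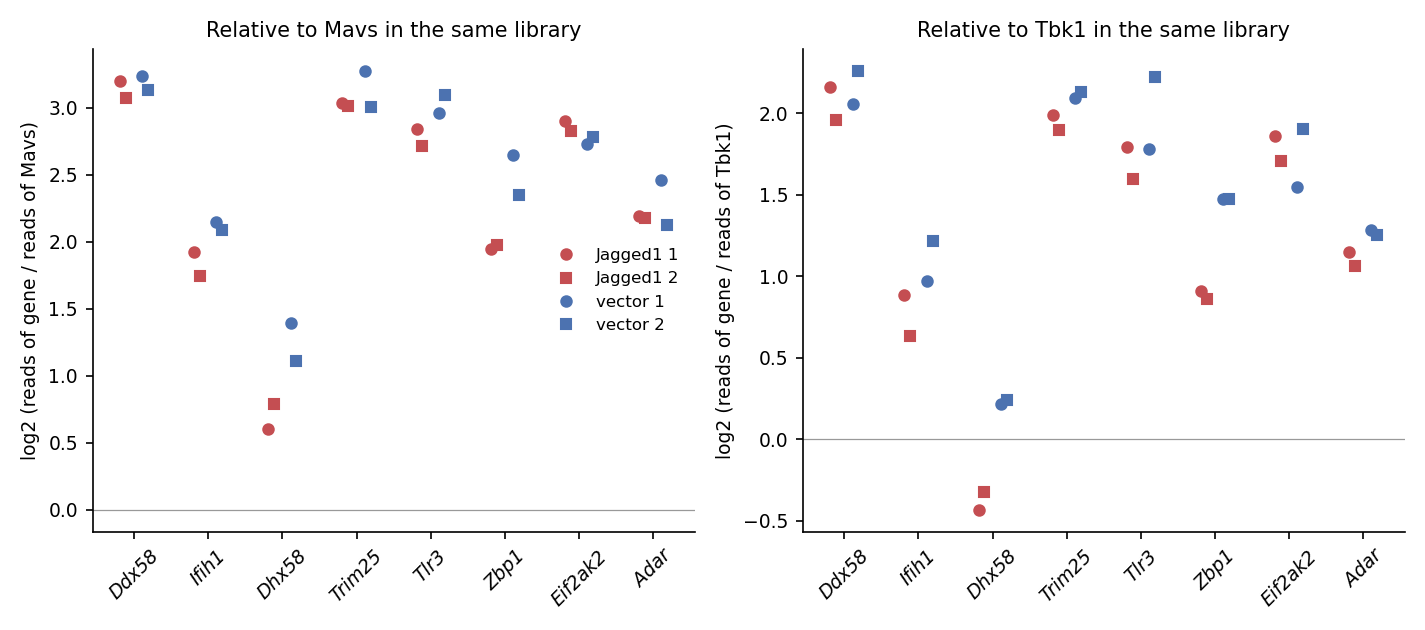
Reads of each of 8 sensor genes relative to the reads of Mavs (left) or Tbk1 (right) in the same library, on a log2 scale, for Jagged1 cells (red) and vector cells (blue), with circles for replicate 1 and squares for replicate 2. Zbp1, Dhx58 and Ifih1 are lower in both Jagged1 libraries in both panels.

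Per length, the sensors formed an upper and a lower set. Levels per length were computed as TPM, in which reads per exon length are scaled to the same sum in every library, with the exon lengths of GENCODE M21. In vector cells the mean levels ran from Zbp1 at 220.4 ± 11.9 TPM through Tlr3 (219 ± 58.1), Trim25 (210.5 ± 14.9), Eif2ak2 (183 ± 41.2) and Ddx58 (178 ± 26.5) (SD, n = 2). Library ranges of neighbours in this set overlapped, so its order is not resolved. A gap followed, and then came Dhx58 at 100.2 ± 6.59 TPM, Adar at 83.0 ± 3.30, Ifih1 at 73.6 ± 12.8, Tbk1 at 71.5 ± 3.71 and Mavs at 41.5 ± 8.34. Dhx58 and Adar did not overlap, nor did Tbk1 and Mavs. Ifih1 overlapped with both Adar and Tbk1, which did not overlap with each other. In Jagged1 cells Eif2ak2 stood at 201 ± 6.03 TPM and overlapped with Trim25 at 199.5 ± 11.6, so the first place is not resolved there either, while by its mean Zbp1 was in place 5 at 156 ± 12.7 and Dhx58 in place 8 at 70.4 ± 11.1. With the length of the longest transcript, Ddx58 stood at 242 TPM in Jagged1 cells and 248 TPM in vector cells, above Zbp1 at 125 TPM in Jagged1 cells and 179 TPM in vector cells. The short RNA Gm23935 took 11.6% of all TPM in vector 1, against 1.98 to 2.67% in the other libraries, which lowers every TPM of vector 1, so the lines are compared on the TMM scale above.

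**Figure D4:**
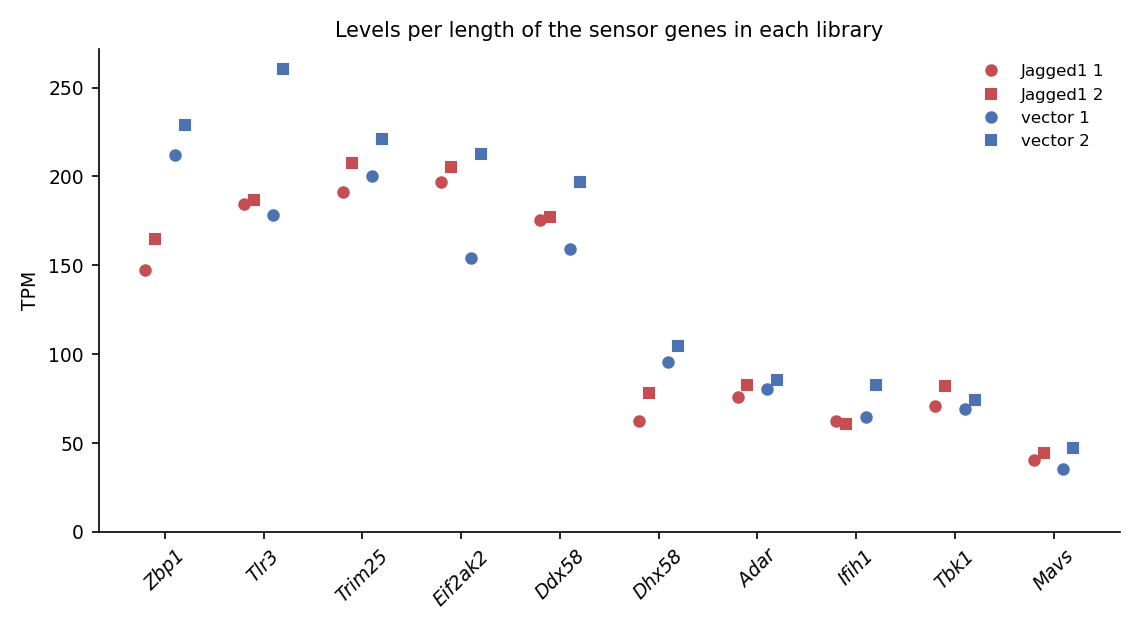
Level of each sensor gene per length in TPM (vertical axis, from 0), ordered by the mean of the vector libraries, for Jagged1 cells (red) and vector cells (blue), with circles for replicate 1 and squares for replicate 2. A set of 5 genes lies between 147 and 260.3 TPM and the other 5 lie at or under 105 TPM.

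The interferon genes that the sensors switch on were at the limit of detection. Ifnb1, the gene of interferon beta and the textbook product of this pathway, had 1 and 0 reads in the Jagged1 libraries, against 10 and 5 reads in the vector libraries. A floor of 3 reads corresponds to 0.145 and 0.217 CPM in the Jagged1 libraries and 0.198 and 0.244 CPM in the vector libraries, so Ifnb1 was under the floor in both Jagged1 libraries and above it in both vector libraries. Summed over the libraries of a line, 1 read stood against 15, a level 0.0529 times that of vector cells with an exact 95% counting interval of 0.00126 to 0.344. That interval covers counting error and not the spread between libraries. Ifnb1 was too low for the filter; with no filter its log2 fold change was -3.91 (adjusted p = 0.269, edgeR), and without Jagged1 2, when it passed the filter, it was -3.28 (adjusted p = 0.821). Of the 9 interferon genes found in the table, Ifna1, Ifna2 and Ifnk were at 0 in all 4 libraries and the others had at most 5 reads in a library, apart from Ifnb1.

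No other gene of the sensing pathway passed the test either. Of 69 listed genes 67 were found in the table, while Trex1 and Ifne were not analysed here, and 53 passed the filter. Of these 53, 0 passed the adjusted threshold in edgeR, DESeq2 or limma-voom, where 0.00752%, 0.353% and 0.00752% of all tested genes were called. In edgeR 2, Ifi204 and Irf7, had an unadjusted p under 0.05, both with a lower value. Such a p was seen in 3.96% of all tested genes, and with a lower value in 2.15%. The median log2 fold change was -0.08, against -0.003 over all tested genes. Of the values 35 were negative and 18 positive, where 50.5% of all tested genes were negative. The Jagged1 values were all under the vector values in 12 genes and all above them in 6, against 15.1% and 13.9% of all tested genes.

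Among 14 tested adaptors and kinases (median log2 fold change -0.12) 0 passed. Irf7, the interferon-inducible transcription factor that amplifies interferon production, was at 558 ± 29.3 CPM in Jagged1 cells and 761 ± 107 CPM in vector cells (log2 fold change -0.45 ± 0.17; adjusted p = 1.00, edgeR), with no overlap. Without vector 1 its log2 fold change was -0.28. The log2 fold change of Irf3, its constitutive relative, was -0.15 ± 0.17, Ticam1, the adaptor of Tlr3, was at -0.28 ± 0.20, and the signalling genes Ripk1 and Traf2 were at -0.17 ± 0.15 and -0.17 ± 0.15. Ikbke, the kinase related to Tbk1, was at 32.5 and 95.25 CPM in Jagged1 cells, against 71.6 and 112.5 CPM in vector cells. Its log2 fold change of -0.53 ± 0.52 rested on Jagged1 1, without which it was 0.05.

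The DNA-sensing genes (10 tested, median -0.08) included 0 that passed. Ifi204, of the interferon-inducible DNA-binding family, was at 72.4 ± 0.963 CPM in Jagged1 cells and 104 ± 2.17 CPM in vector cells (log2 fold change -0.52 ± 0.14; adjusted p = 0.979, edgeR), and reads of its close relatives may not be fully separated from it. Cgas, the cytosolic DNA sensor listed in the table under its older name Mb21d1, was at 44.5 and 26.2 CPM in Jagged1 cells. In vector cells Cgas was at 46.7 and 36.6 CPM. Its log2 fold change was -0.23 ± 0.29 and was 0.10 without Jagged1 2. Sting1, the adaptor of Cgas listed as Tmem173, was at 63.6 and 67.8 CPM in Jagged1 cells, against 59.0 and 61.3 CPM in vector cells. Both Jagged1 libraries were thus above both vector libraries, with a log2 fold change of 0.13 ± 0.15. The helicase gene Ddx41 had a log2 fold change of -0.29 ± 0.17.

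Regulators of the RIG-I family (12 tested, median -0.08) held 0 calls, with the log2 fold change of Zc3hav1, an antiviral zinc finger protein, at -0.27 ± 0.14, the ubiquitin ligase Rnf135 at -0.28 ± 0.20, Prkra, an activator of PKR, at 0.25 ± 0.16 and the deubiquitinase Usp21 at 0.17 ± 0.15. Effectors of double-stranded and Z-form RNA (13 tested, median -0.04) also held 0 calls. Mlkl, the executor of necroptosis, had a log2 fold change of -0.38 ± 0.18, the helicase gene Ddx3x one of 0.33 ± 0.20 and Eif2s1, which encodes the target of PKR, one of -0.22 ± 0.23. Mlkl was at -0.21 without vector 1, and Ddx3x at 0.13 without Jagged1 1. Ripk3, the kinase through which Zbp1 acts, had 10 and 92 reads in Jagged1 cells, against 83 and 8 reads in vector cells, so its libraries differed far more within a line than between lines; it was named after its values were seen. The last list held 7 genes of Toll-like receptor signalling. The endosomal receptor genes Tlr7, Tlr8 and Tlr9 were too low to be tested, and the 4 tested genes, surface receptors and partner proteins (median -0.18), held 0 calls, with log2 fold changes of 0.48 ± 0.25 for Tlr4, a receptor of bacterial lipopolysaccharide, and, for the adaptor Myd88, -0.27 ± 0.16. The values were -0.16 ± 0.20 for Unc93b1, a chaperone of endosomal receptors, and -0.20 ± 0.29 for Tlr2. The value of Tlr4 was 0.26 without Jagged1 2 and 0.75 without vector 2. Tlr8 and Tlr9 had 0 reads in every library.

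**Figure D5:**
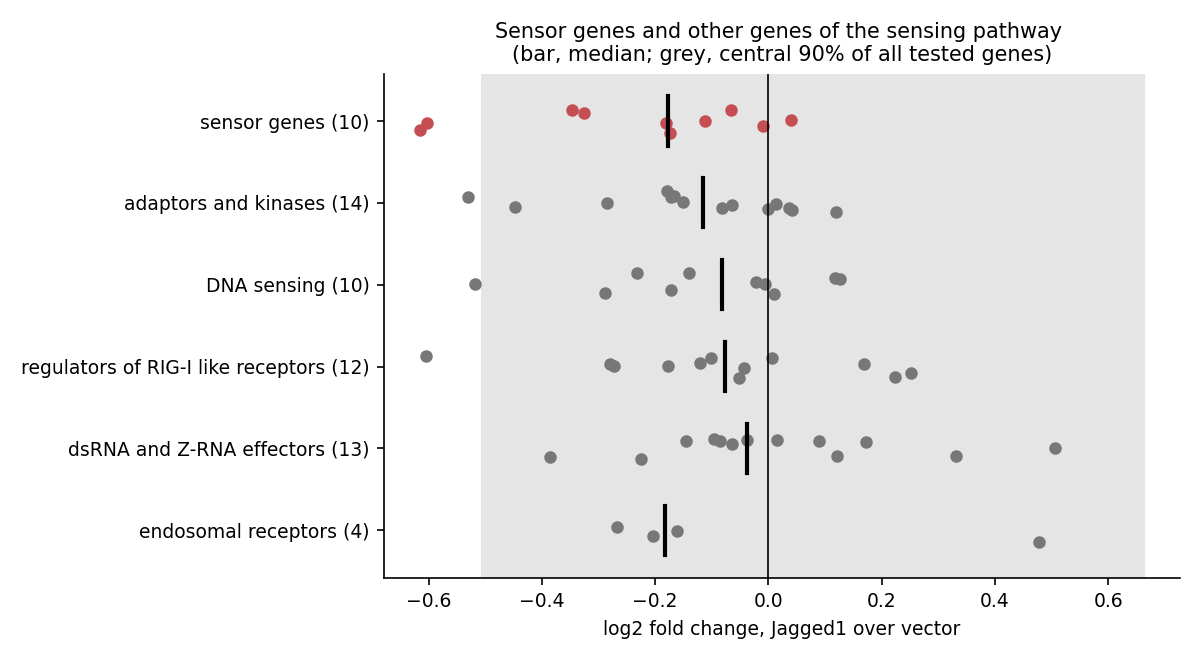
Log2 fold change of Jagged1 over vector (horizontal axis) for the 10 sensor genes (red) and the tested genes of 5 other lists of the sensing pathway (grey points), with bars at the medians. The grey band holds the central 90% of all tested genes, from -0.51 to 0.66, and Dhx58 and Zbp1 are the 2 sensor genes outside it.

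The mean profile of the sensors over the 4 libraries was not a profile that each of them shared. The mean centred log2 CPM of the 10 genes was -0.15 and -0.09 in the Jagged1 libraries and 0.10 and 0.14 in the vector libraries. The members lay 0.0518 (Trim25) to 0.209 (Dhx58) from it, as a root mean square difference on the log2 scale. Among 9322 tested genes with a mean of at least 10 CPM, the 5 closest to it were Kansl3, Gatb, Cox15, Tmem192 and Hdlbp. Their root mean square differences were 0.00912 to 0.0202 on the log2 scale over 4 libraries, against a median of 0.197 over all 9322 genes. The 5 were picked for the smallest differences, so lying under the median follows from the choice and shows no link to the sensors.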

How the data were processed

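The authors deposited raw read counts per gene symbol, 1 column for each of the 4 libraries, neither normalized nor pooled. STAR 2.6.0c, featureCounts 1.6.2 and the build mm10 (GRCm38) are named in the submitters' processing notes. No source used here gives the annotation release or the strand setting, so counts of genes with overlapping antisense exons may be mixed. Libraries were grouped by their titles and the virus named in their labels.

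From the counts, genes were filtered with filterByExpr (minimum count 10), scaled with TMM factors and tested with the quasi-likelihood F test of edgeR 4.0.16 (robust dispersion, legacy = TRUE; R 4.3.3) across all 13299 genes, with Benjamini-Hochberg adjustment and a threshold of 0.05. Each SE was taken from the log2 fold change and its F statistic. CPM is TMM-scaled. DESeq2 1.42.0 and limma-voom (limma 3.58.1), other scalings and filters, leaving out each library, and a fit with the replicate number as a block were alternatives. Lengths and coordinates came from GENCODE M21 (GRCm38), in which 20317 of 33650 symbols matched, holding 96.2 to 96.9% of counts. The 27 names turned into dates are not reported.

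The members and lists were chosen with earlier results of these data known. The rule for named genes took Jag1, the 10 members, Cgas, Sting1, Irf3, Irf7, Ikbke and Ifnb1, up to 4 tested genes per list with the smallest unadjusted p, and the 5 genes closest in profile. A gene that the rule took is not reported here.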

Additional observations from a re-analysis of the deposited data

How the results depend on the processing

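The number of sensor genes past the adjusted threshold was 0 in each of the 12 alternative fits run, and their median log2 fold change lay between -0.21 and -0.13. The directions of Ddx58, Ifih1, Dhx58, Trim25, Tlr3, Zbp1 and Adar were kept in all 12. The values of the lines did not overlap in these genes, so leaving out 1 library could hardly reverse their sign. The other fits used the same libraries, so the kept directions are not an independent check. Leaving out 1 library moved the size by over 1.5 times in Dhx58 (-0.76 to -0.49), Ddx58 (-0.13 to -0.08) and Trim25 (-0.23 to -0.11). The same held for Tlr3 (-0.45 to -0.17) and Adar (-0.26 to -0.08). Ifih1 (-0.39 to -0.29) and Zbp1 (-0.67 to -0.52) moved less. The near-zero members changed sign: Tbk1 was at 0.0096 with a minimum mean of 5 CPM, and leaving out 1 library gave -0.093 to 0.076 for Tbk1, -0.049 to 0.15 for Eif2ak2 and -0.13 to 0.018 for Mavs. Outside the members, leaving out 1 library gave -0.69 to 0.16 for Tlr2, -1.497 to 0.053 for Ikbke, -0.67 to 0.098 for Cgas and -0.55 to 0.037 for Eif2s1. The direction was kept but the size moved by over 1.5 times, uncalled, in Irf7 (-0.59 to -0.28), Irf3 (-0.26 to -0.05), Ticam1 (-0.42 to -0.16), Ddx41 (-0.41 to -0.17), Mlkl (-0.53 to -0.21), Ddx3x (0.13 to 0.51), Rnf135 (-0.40 to -0.16), Myd88 (-0.39 to -0.15), Unc93b1 (-0.27 to -0.03), Ripk1 and Traf2 (both -0.23 to -0.10), Sting1 (0.08 to 0.17) and Tlr4 (0.26 to 0.75). Over all genes, 169 passed without the low-count filter, 47 with DESeq2 and 17 with the replicate number as a block, against 1 in the edgeR fit; leaving out 1 library gave 0 to 193. Among the pathway genes, leaving out 1 library gave 0 to 1 calls, the 1 without Jagged1 1. The cause of these differences was not tested.

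The labels do not say that equal replicate numbers mark a shared culture or day, and with 2 pairs the numbers were not taken as pairs. The difference between replicates 1 and 2 correlated between the lines at 0.43 across tested genes and at -0.64 over the 10 sensor genes, a description over genes that are not independent. With the replicate block 0 sensor genes passed, and the smallest adjusted p were 0.163 for Zbp1 and 0.201 for Dhx58 (edgeR), which are the lowest over all alternatives for each gene; the highest was 1.00. In TPM, leaving out Gm23935, an alternative chosen after seeing the data, put Zbp1 at 237 TPM in vector cells. The quasi-likelihood fit with legacy = FALSE was also added after seeing the data. With 2 libraries per line, differences of the size seen in Ifih1 or Tlr3 are not resolved.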

Other observations

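Some ratios between sensor genes separated the lines and others did not. These ratios were chosen after the values were seen, and no test was made of them. The share of all gene pairs whose ratio separates the lines was not computed. Dhx58 had 0.166 and 0.205 reads per read of Ddx58 in Jagged1 cells, against 0.278 and 0.247 in vector cells, so LGP2 transcripts were scarcer relative to those of RIG-I in both Jagged1 libraries. Ifih1 had 0.413 and 0.399 reads per read of Ddx58 in Jagged1 cells, against 0.470 and 0.486 in vector cells. Relative to Ifih1, Dhx58 stood at 0.401 and 0.515 in Jagged1 cells, against 0.592 and 0.508 in vector cells, and these libraries overlapped. Of the members with a domain for Z-form RNA, Zbp1 had 0.844 and 0.869 reads per read of Adar in Jagged1 cells, against 1.14 and 1.17 in vector cells. Relative to Eif2ak2, Zbp1 stood at 0.516 and 0.555 in Jagged1 cells, against 0.948 and 0.742 in vector cells.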
